A study of Homo sapiens with 16 samples.

Results

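Small nucleolar RNAs and small Cajal body RNAs are short nuclear guide RNAs, and 84 of the 2213 genes with an Argonaute 2 (Ago2) peak in the authors' deposited table belonged to them. They were taken as every gene whose annotation name starts with SNORD, SNORA or SCARNA. These were 56 SNORD genes with 68 peaks, 23 SNORA genes with 28 peaks and 5 SCARNA genes with 12 peaks, 108 of the 4768 peaks listed. The peaks came from CLIP, in which a protein is crosslinked to the RNA it touches, precipitated, and the bound RNA sequenced. The cell line was 293S, established from human embryonic kidney, either untreated or treated with 1 µM hippuristanol for 30 min. Hippuristanol, a natural product, inhibits eIF4A, a helicase that unwinds mRNA leaders so that ribosomes can load. Per the series' design text there were 2 biological replicates per treatment, and each was divided into 1 portion for RNA-seq and 3 for CLIP, with Ago2 antibodies from Abnova, Santa Cruz and Sigma, giving 12 CLIP and 4 RNA-seq libraries. No transgene or other agent is named for either group.

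Every peak carries 2 values, in which the authors combined CLIP libraries, and how these were combined is not stated. The log average is a normalized average of the CLIP signal over both treatments. The log ratio compares hippuristanol with untreated cells, so that a log ratio above 0 is a higher value in treated cells. No source used here names the log base, so values are given as log units and no fold is stated. With 1 combined value per peak there is no value per replicate or antibody, no replicate check and no p-value, and the depth of each library is unknown. The gene value used below is the median over a gene's peaks, which for the 65 members with 1 peak is the authors' own value. Intervals are exact order-statistic intervals of a median at 95% and describe the spread over genes, not over replicates. RNA-seq values were not analysed here, so a change in the amount of an RNA and a change in its contact with Ago2 cannot be told apart. Nor was the log average set against the amount of the RNA.

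Guide RNAs of this kind act in the nucleolus and in Cajal bodies, where they pair with ribosomal or spliceosomal RNA and direct a protein enzyme to single bases. C/D RNAs (SNORD) carry the C and D boxes, bind fibrillarin and guide the methylation of ribose. H/ACA RNAs (SNORA) fold into hairpins joined by an H box, end in an ACA box, bind dyskerin and guide the change of uridine to pseudouridine. Small Cajal body RNAs (SCARNA) may carry either kind of box, or both, and guide the same changes on spliceosomal RNA. Most human guide RNAs are cut from introns of a host gene. Ago2 is best known for carrying microRNAs to mRNAs, and short fragments of some guide RNAs have been described in Argonaute proteins.

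The annotated RNAs behind the peaks carried the boxes of their class. GENCODE 29 held a transcript for 77 of the 84 members, 4 of them (SNORA3, SNORA34, SNORA42 and SNORA45) under their current RefSeq symbols. The core TGATG of the C box lay in the first 20 bases of 45 of 49 SNORD members (91.8%), against 80.2% of all 288 SNORD entries and 1.34% of all 149 SNORA entries. The D box CTGA lay in the last 20 bases of 48 of the 49 (98.0%), against 94.4% of all SNORD entries and 8.72% of all SNORA entries. An ACA lay in the last 10 bases of 22 of 23 SNORA members (95.7%), against 89.9% of all SNORA entries and 4.86% of all SNORD entries. The H box ANANNA was found between 30% and 70% of the length in all 23 SNORA members, but that loose motif was also found in 61.5% of all SNORD entries. Motifs were searched on the RNA strand only, and a match is a match of letters.

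The H/ACA members on which the results below turn are shown here as annotated, 5′ to 3′ in DNA letters, with the H box match nearest the middle and the terminal ACA in capitals. SNORA33 had the highest log average of those shown, SNORA71B the highest log ratio, and SNORA14A and SNORA14B are copies that share 91.1% of aligned bases.
SNORA33: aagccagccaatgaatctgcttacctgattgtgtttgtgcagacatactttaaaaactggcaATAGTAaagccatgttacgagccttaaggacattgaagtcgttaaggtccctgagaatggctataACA
SNORA71B: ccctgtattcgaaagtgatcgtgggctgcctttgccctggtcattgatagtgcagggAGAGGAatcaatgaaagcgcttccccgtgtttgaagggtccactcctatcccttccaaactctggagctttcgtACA
SNORA14A: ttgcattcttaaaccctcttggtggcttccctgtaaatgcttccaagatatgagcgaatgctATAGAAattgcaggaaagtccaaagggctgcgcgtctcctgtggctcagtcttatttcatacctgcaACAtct
SNORA14B: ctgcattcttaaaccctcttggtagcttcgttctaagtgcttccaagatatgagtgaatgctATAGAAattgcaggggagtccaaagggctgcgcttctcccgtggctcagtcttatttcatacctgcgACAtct

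The C/D members shown next are the one with the highest log average (SNORD43), a pair with high log ratios within 1 gene (SNORD36A, SNORD36B), 2 more with high log ratios (SNORD8, SNORD27) and the 2 with the lowest (SNORD57, SNORD10). Capitals mark the C box core and the D box.
SNORD43: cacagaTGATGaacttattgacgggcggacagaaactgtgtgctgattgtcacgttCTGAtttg
SNORD36A: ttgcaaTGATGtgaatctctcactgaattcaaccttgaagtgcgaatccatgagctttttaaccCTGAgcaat
SNORD36B: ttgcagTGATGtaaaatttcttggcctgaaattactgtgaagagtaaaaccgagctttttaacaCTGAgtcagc
SNORD8: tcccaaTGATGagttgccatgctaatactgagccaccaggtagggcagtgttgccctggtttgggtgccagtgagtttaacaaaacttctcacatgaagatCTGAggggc
SNORD27: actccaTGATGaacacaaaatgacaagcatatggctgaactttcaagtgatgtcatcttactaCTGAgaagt
SNORD57: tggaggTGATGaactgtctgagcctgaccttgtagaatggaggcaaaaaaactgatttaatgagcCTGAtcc
SNORD10: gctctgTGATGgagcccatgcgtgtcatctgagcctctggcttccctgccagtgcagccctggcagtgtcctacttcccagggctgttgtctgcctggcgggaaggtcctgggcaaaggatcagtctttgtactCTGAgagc

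A pair of members contained whole mature microRNAs of the RefSeq table on GRCh38.p14. SCARNA16 held both arms of miR-6516, at bases 122 to 143 and 163 to 184 of its 187 bases, and SNORA34 (now SNORA2C) held miR-1291 at bases 2 to 25 of its 137. The mature arms are in capitals in the guide RNAs, and the seed, bases 2 to 8, is in capitals in the microRNAs, whose seeds all differ.
SCARNA16: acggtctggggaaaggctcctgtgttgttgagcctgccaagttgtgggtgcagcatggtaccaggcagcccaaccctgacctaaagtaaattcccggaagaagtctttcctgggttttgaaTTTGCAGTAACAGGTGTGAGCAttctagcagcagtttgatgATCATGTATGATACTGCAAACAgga
SNORA34: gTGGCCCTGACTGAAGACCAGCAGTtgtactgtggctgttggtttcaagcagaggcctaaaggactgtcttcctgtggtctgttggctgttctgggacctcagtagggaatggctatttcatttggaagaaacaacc
hsa-miR-6516-5p: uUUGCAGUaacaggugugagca
hsa-miR-6516-3p: aUCAUGUAugauacugcaaaca
hsa-miR-1291: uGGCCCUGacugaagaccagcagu

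The log average of these small RNAs was higher than that of most genes of the table. The median log average was −4.82 (95% interval −5.39 to −4.10) over the 84 members and −6.33 (−6.39 to −6.26) over the 2129 other genes, a difference of 1.52 log units. Of the 84, 68 (81.0%) lay above the median of the other genes. Members make up 3.80% of all genes, but were 10 of the 50 genes with the highest log averages and 17 of the first 100. Against the 48 other non-coding genes, whose median was −5.53, the difference was 0.72. The members also spread widely, from 2.06 to −9.53, and 5 of them lay below −8.03, the lower decile of the other genes.

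The H/ACA RNA SNORA74A had the highest log average of all 2213 genes. In the authors' deposited table its single peak of 34 nt stood at 2.06, with 0.47 as its log ratio. SNORA33 ranked 4th, with a gene value of 0.57 for the log average and −0.86 for the log ratio. The peak at its 5′ side (chromosome 6, 133138425 to 133138455, plus strand, hg19) stood at a log average of 1.21 with −0.54 as its log ratio in the authors' deposited table, and the peak that began 2 nt after it (133138457 to 133138486) had −0.08 and −1.18. Both peaks of SNORA33 were thus lower in treated cells, while SNORA74A was higher. The next H/ACA members were SNORA67, at −1.66, SNORA14A, at −1.72, and SNORA70, at −2.32.

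The C/D RNAs with the highest log averages were SNORD43, SNORD46, SNORD35A, SNORD100 and SNORD44. Their gene values of the log average were −1.04, −1.27, −1.28, −1.47 and −1.69, in that order, which placed them 18th to 36th among all genes. Their log ratios were 0.83, 1.26, −0.18, 1.04 and 0.54, so 4 of the 5 were above 0, where 60.5% of all genes were. SNORD44, which is often used as a reference RNA in microRNA assays, is cut from GAS5, a non-coding gene that holds several C/D RNAs. At the other end stood SNORD28 and SNORD29, both within SNHG1, with log averages of −9.53 and −9.51.

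**Figure D1:**
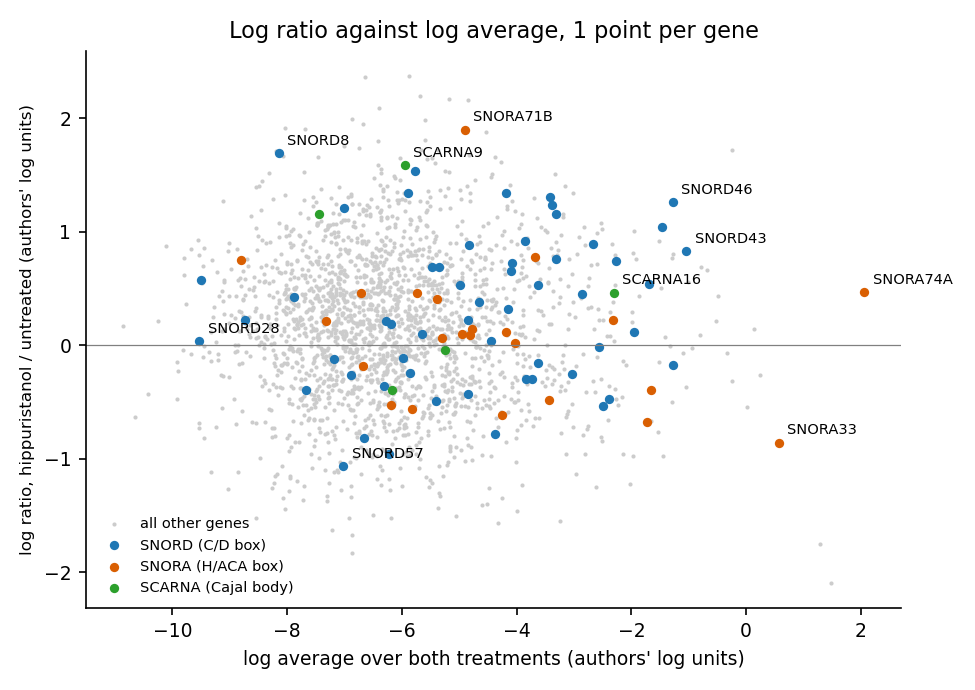
Log ratio of hippuristanol over untreated cells (vertical axis) against the log average over both treatments (horizontal axis), both in the authors' log units, 1 point per gene, with the 84 guide RNA genes in colour by class and the 2129 other genes in grey. SNORA74A, at a log average of 2.06, and SNORA33, at 0.57, stand to the right of the other guide RNAs, and the coloured points lie mostly to the right of the grey median of −6.33.

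The log ratios of the guide RNAs as a whole were centred close to those of other genes. Their median was 0.21 (0.04 to 0.46) against 0.17 (0.14 to 0.20) over all other genes, and 54 of the 84 (64.3%) lay above 0, where 60.5% of all genes did. The other non-coding genes had a median of −0.04 (−0.12 to 0.21), with 23 of 48 above 0. A gene value above 1 log unit was listed for 13 members (15.5%), beside 9.17% of all genes, and one below −1 for 1 member (1.19%), beside 3.43% of all genes. Counted from the median gene in place of 0, 10 members lay more than 1 above it, beside 5.69% of all genes, and 3 more than 1 below it, beside 5.87%. The members above 1 were 10 SNORD, 1 SNORA and 2 SCARNA genes. How much of this tail would recur in other replicates is not known from combined values.

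The classes differed in where their members lay, with overlapping intervals. The median log ratio was 0.27 (0.03 to 0.57) over 56 SNORD genes and 0.10 (−0.40 to 0.41) over 23 SNORA genes, a difference of 0.17. The 5 SCARNA genes had a median of 0.46, and so few genes allow no 95% interval. The share above the median gene of the table, at 0.17, was 32 of 56 SNORD, 9 of 23 SNORA and 3 of 5 SCARNA genes. Above 1 log unit lay 10 SNORD genes (17.9%) and 1 SNORA gene (4.35%), beside 9.17% of all genes. The interquartile range was 1.02 in SNORD and 0.87 in SNORA genes, near the 0.85 of all other genes.

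**Figure D2:**
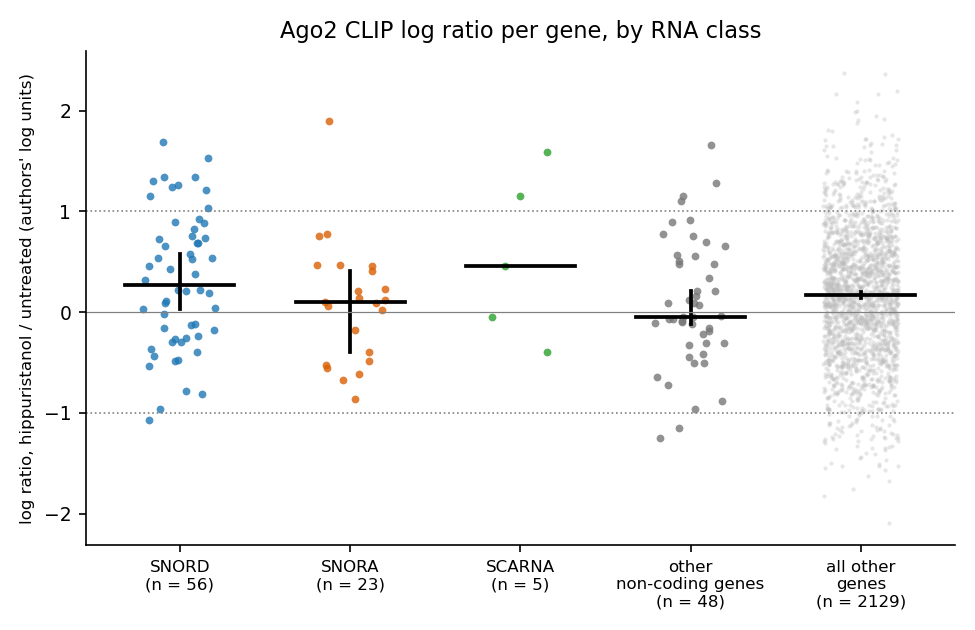
Log ratio per gene (vertical axis, authors' log units) for the 3 classes of guide RNA, the other non-coding genes and all other genes; horizontal bars are medians, vertical bars their exact 95% intervals over genes (none for SCARNA), and dotted lines mark 1 and −1. The SNORD median of 0.27 and the SNORA median of 0.10 lie on either side of the 0.17 of all other genes, and 10 SNORD genes but 1 SNORA gene stand above 1.

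The gap between the classes was widest among the RNAs with the highest log averages. At log averages of −4 or more, 22 SNORD genes had a median log ratio of 0.53 and 7 SNORA genes one of −0.40, beside 0.11 over 210 other genes. Between −6 and −4 the medians were 0.38 over 19 SNORD and 0.10 over 11 SNORA genes. Below −6 the order turned, with 0.03 over 15 SNORD and 0.21 over 5 SNORA genes. Across genes, log ratio and log average correlated with a Pearson r of 0.16 (Spearman 0.20) over the 56 SNORD and −0.26 (−0.25) over the 23 SNORA genes. These are descriptions across RNAs that share the same libraries, and the bins of 5 and 7 genes are thin.

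Of the C/D RNAs, SNORD8, SNORD36A, SNORD15B and SNORD27 had the highest log ratios. SNORD8, within CHD8, stood at 1.69, with a low log average of −8.15. SNORD36A stood at 1.53, within the ribosomal protein gene RPL7A. SNORD15B, from RPS3, and SNORD27, from SNHG1, both stood at 1.34. They were among the 67 highest gene values of the table. The other 6 C/D members above 1 lay between 1.04 and 1.30. They were SNORD12B, SNORD46, SNORD42B, SNORD41, SNORD36B and SNORD100. Of these, SNORD46 combined a high log ratio with a high log average, and its overlapping peaks, of 38 and 57 nt, had log ratios of 1.22 and 1.30 in the authors' deposited table.

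The lowest C/D values belonged to SNORD57, SNORD10, SNORD26 and SNORD93. SNORD57, within NOP56, stood at −1.07 and was the only member below −1. NOP56 itself encodes a core protein of C/D particles. SNORD10, from EIF4A1, stood at −0.96, SNORD26, from SNHG1, at −0.82 and SNORD93, from SNHG26, at −0.78. Each of these had 1 peak, and their log averages ran from −4.38 to −7.02.

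Among H/ACA RNAs, SNORA71B stood apart from the rest of its class. Its gene value was 1.90, the 12th highest of the table, from 1 peak (chromosome 20, 37053842 to 37053913, minus strand). The next H/ACA values were 0.78 for SNORA38 and 0.75 for SNORA20, the latter with a low log average of −8.81. SNORA71B belongs to a family of similar copies, so its reads may not be its own alone. SNORA74A followed with 0.47. The lowest were SNORA33 at −0.86, SNORA14A at −0.68, SNORA25 at −0.62 and SNORA14B at −0.56. No H/ACA gene lay below −1, beside 3.43% of all genes.

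The 5 Cajal body RNAs ran from −0.39 to 1.59, and 16 members of the other classes lay below the lowest of them. SCARNA9 stood at 1.59 and SCARNA7 at 1.16, from within the protein-coding genes CEP295 and KPNA4. SCARNA16, the host of miR-6516, stood at 0.46 with the highest log average of the class, −2.30. SCARNA2, which has no named host on its strand, stood at −0.05, and SCARNA17, in SNHG22, at −0.39. The log averages of the 2 above 1 were −5.95 for SCARNA9, the median of the class, and −7.44 for SCARNA7, the lowest of the class.

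The peak of SCARNA16 was 24 nt long (chromosome 17, 75085509 to 75085533, plus strand), close to the 22 nt of each miR-6516 arm. Peaks of 24 nt were also listed on SNORA51 and SCARNA2, for which no mature microRNA was found. The peak of SNORA34, the host of miR-1291, was 35 nt long (chromosome 12, 49048165 to 49048200, minus strand), and the authors' deposited table gives it −5.29 as log average and 0.06 as log ratio. The genome of the build of the peaks was not used here, so where either peak lies in the printed RNA was not tested. Of the other 83 members, 32 lay above the log ratio of SCARNA16, and its log average of −2.30 ranked 59th among all genes. Neither value tells whether its reads come from miR-6516, which was not tested.

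**Figure D3:**
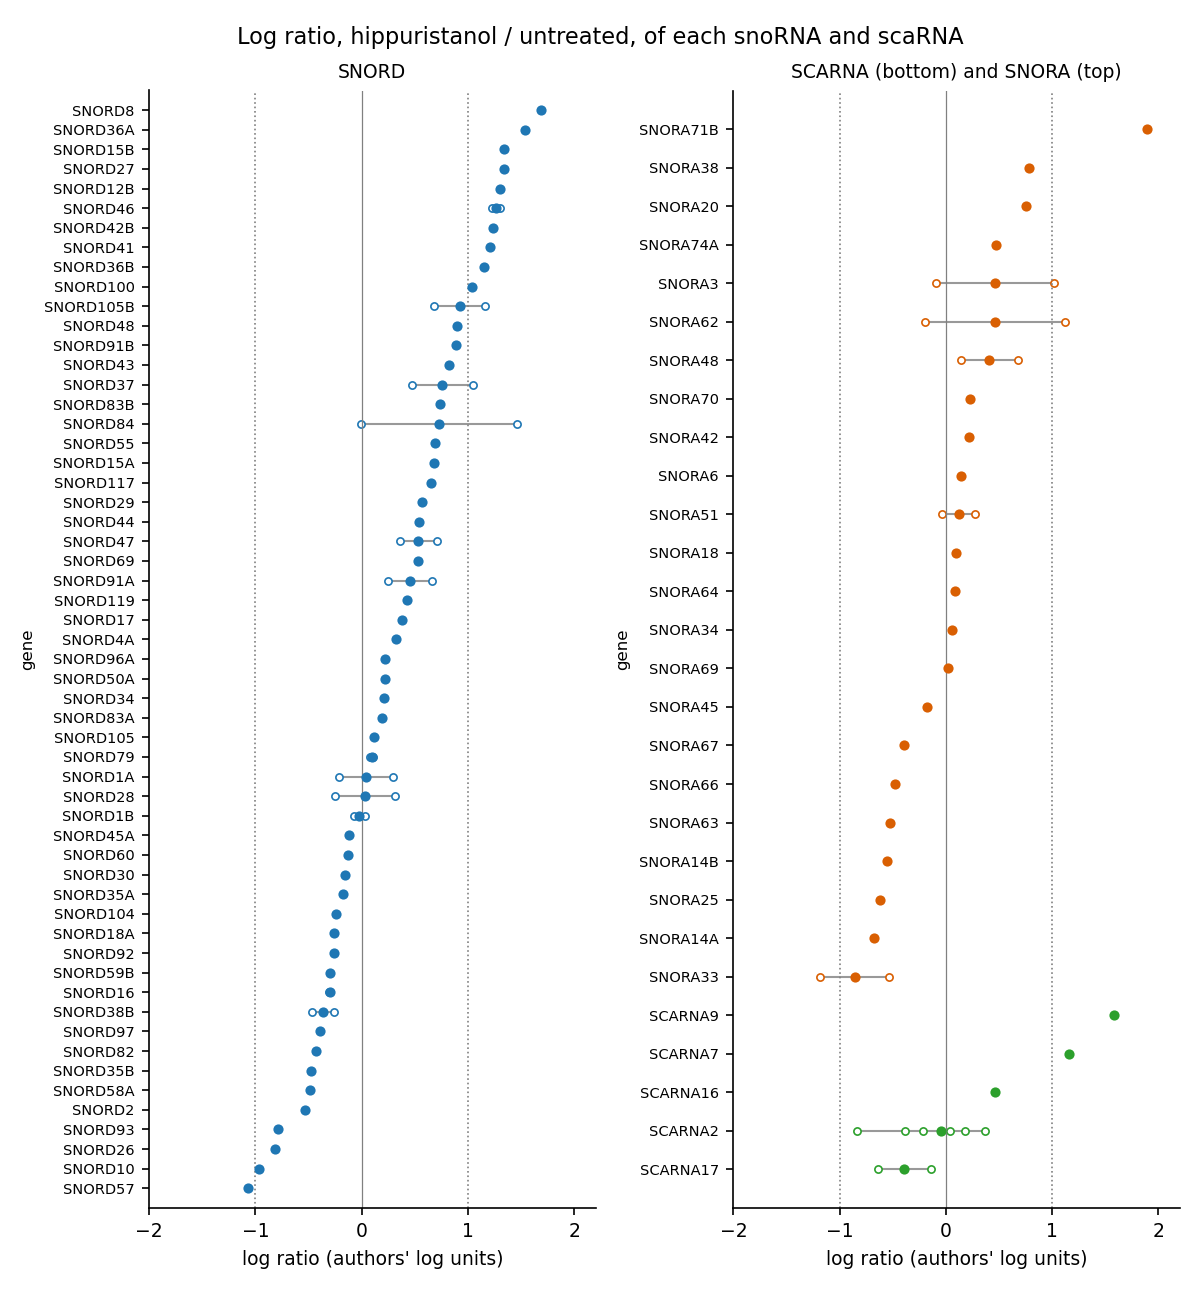
Log ratio of hippuristanol over untreated cells (horizontal axis, authors' log units) of each of the 84 guide RNAs (vertical axis), SNORD at left, SNORA and SCARNA at right. Filled points are gene values, open points the single peaks of the 19 members with 2 or more peaks, and dotted lines mark 1 and −1; values run from −1.07 for SNORD57 to 1.90 for SNORA71B.

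Peaks on C/D RNAs were long relative to the RNA, and those on H/ACA RNAs less so. The median peak was 53 nt long in SNORD, 44.5 nt in SNORA and 37 nt in SCARNA genes, against 39 nt in all other genes, counted as end minus start. The joint length of a gene's peaks had a median of 77.3% of the annotated length in 49 SNORD genes and 39.6% in 23 SNORA genes. Their annotated lengths had medians of 77 and 134 bases. This ratio was at least 70% in 31 SNORD and 3 SNORA genes. It is a ratio of lengths, and positions of peaks and annotated RNAs were not compared. In SNORD104 the peak of 76 nt was longer than the 70 bases annotated by GENCODE, so ends can differ between annotations. SCARNA17 was left out because its peaks span more than its GENCODE transcript.

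Among genes with 2 peaks, the median difference between peaks was about as large in guide RNAs as in other genes. Over the 18 members with 2 peaks, the 2 values differed by a median of 0.49 (0.21 to 0.57), and over 375 other genes with 2 peaks by 0.55 (0.48 to 0.65). In 7 of the 18 the 2 peaks stood on opposite sides of 0, as they did in 155 of the 375 other genes. In all 12 SNORD genes with 2 peaks, and in SNORA51, the peaks overlap and can share reads. Overlap was not examined in the other genes, so the medians of members and other genes may not compare like with like. The 6 members with peaks that do not overlap had a median range of 0.88. They include SCARNA2, whose range of 1.20 is over 7 peaks, so the 0.88 is not a value for 2 peaks alone. The overlapping peaks of SNORD16 differed by 0.01, those of SNORD79 by 0.03 and those of SNORD46 by 0.08. Differences over 1 log unit were found in SNORD84, SNORA62, SNORA3 and SCARNA2. Of the members with 2 peaks, 3 (16.7%) differed by over 1, against 28% of the other genes with 2 peaks. In SNORD84, peaks that share 1 nt (chromosome 6, 31508877 to 31508910 and 31508909 to 31508936, minus strand) had log ratios of −0.01 and 1.46 in the authors' deposited table. In SNORA62 the 2 peaks, 23 nt apart, had −0.20 and 1.12, and in SNORA3, 1 nt apart, −0.09 and 1.02, in the same table. A gene value between such peaks describes neither of them.

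SCARNA2, a long guide RNA of 420 bases, had 7 peaks and so shows the signal along 1 molecule. Measured from the start of the first, they ran from 0 to 393 nt and left a gap of 98 nt between the 4th and the 5th. Their log averages lay between −5.99 and −4.65, a narrow band. In the authors' deposited table the log ratios were, from 5′ to 3′, −0.84, 0.37, 0.04, −0.05, −0.38, 0.18 and −0.22. The lowest belonged to the first peak, which also had the lowest log average, and the peak 1 nt after it had the highest. No run of neighbouring peaks stood on 1 side of 0 for more than 2 peaks.

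**Figure D4:**
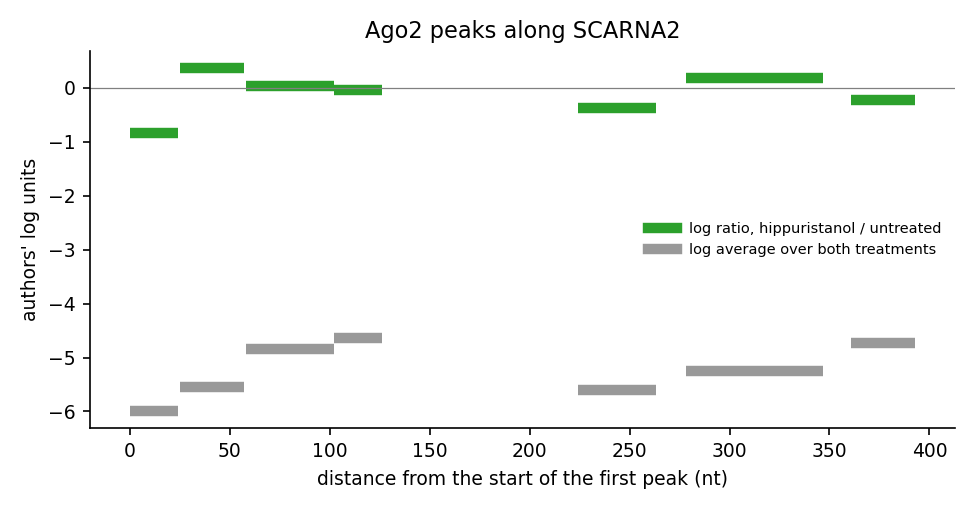
The 7 Ago2 peaks along SCARNA2, drawn to scale from the start of the first peak (horizontal axis, nt), with the log ratio in green and the log average in grey (vertical axis, authors' log units). Log ratios lie between −0.84 and 0.37 on both sides of 0, while log averages stay between −5.99 and −4.65.

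By current RefSeq names 9 pairs of members were copies of the same guide RNA, and their log ratios differed by a median of 0.43 and at most 0.81. Over all 3486 pairs of members the median difference was 0.66. Of the 9 pairs 7 stood on the same side of 0, as did 53.5% of all pairs of members. SNORA14A and SNORA14B, shown above, share 91.1% of aligned bases and lie in different hosts, POR and TOMM20. Their log ratios were −0.68 and −0.56, while their log averages lay 4.11 apart, at −1.72 and −5.83. The other pairs shared between 58.2% and 78.4% of their bases, and 7 of these 8 pairs lay in 1 host. SNORD36A and SNORD36B in RPL7A had 1.53 and 1.15, and SNORD1A and SNORD1B in SNHG16 had 0.04 and −0.02. The widest pair was SNORD105 and SNORD105B in PPAN, with 0.11 and 0.92. Reads that fit both copies may have been shared, which was not tested.

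A named host gene on the same strand enclosed 83 of the 84 members in GENCODE 29, 56 hosts in all. By kind of host the medians were 0.22 (−0.18 to 0.69) for 28 members in 16 ribosomal protein genes, 0.38 (0.06 to 0.75) for 31 in other protein-coding genes and 0.09 (−0.15 to 0.54) for 19 in non-coding hosts. Within ribosomal protein genes the median was 0.68 (−0.26 to 1.15) for 19 SNORD and 0.09 (−0.48 to 0.46) for 9 SNORA genes. In other protein-coding genes it was 0.44 for 20 SNORD and 0.10 for 9 SNORA genes. The order was the other way in non-coding hosts, with 0.04 for 15 SNORD and 1.18 for 2 SNORA genes, and in the genes of eIF4A, with −0.75 for 2 SNORD and −0.40 for 3 SNORA genes. In ribosomal protein genes 6 of the 19 SNORD genes were above 1, and none of the 9 SNORA genes, beside 9.17% of all genes. The intervals given overlap.

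Guide RNAs of 1 host did not share 1 value. In 20 hosts with 2 or more members, 47 members in all, the range within a host had a median of 0.64. In 9 hosts the members stood on both sides of 0. Over all pairs of members, whatever their host, the median difference was 0.66 and 53.5% stood on the same side of 0. Hosts with more than 2 members can span a wider range than a pair. SNHG1, a non-coding gene best known as a carrier of C/D RNAs, held the widest range. Its 5 members were SNORD27 at 1.34, SNORD29 at 0.57, SNORD28 at 0.03, SNORD30 at −0.15 and SNORD26 at −0.82. RPS12 held SNORD100 at 1.04 and SNORA33 at −0.86, a pair of opposite classes and both among the RNAs with the highest log averages. In contrast RPL4, with SNORD16 and SNORD18A at −0.30 and −0.26, had like values. DDX39B held SNORD84 and SNORD117 at 0.73 and 0.66, but the 0.73 lies between peaks at −0.01 and 1.46. In GAS5, SNORD44, SNORD47 and SNORD79 stood at 0.54, 0.53 and 0.09.

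The genes of eIF4A, the helicase that hippuristanol blocks, host 5 of the members. This group was formed after the values were seen. EIF4A2 held SNORD2 at −0.54 and SNORA63 at −0.52, and EIF4A1 held SNORD10 at −0.96, SNORA67 at −0.40 and SNORA48 at 0.41. The median was −0.52, and 4 of the 5 lay below 0, where 60.5% of all genes lay above it. The only peak of EIF4A2 itself had 0.31. With 5 RNAs from 2 genes, chosen after their values were seen, the group has no test.

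Host transcripts and their guide RNAs could be set side by side for 31 members of 23 hosts with peaks of their own. The member's log ratio was above the host's in 21 and below it in 10, with a median difference of 0.47 (−0.12 to 0.87). The log average was higher in the member for 27 of the 31, and over all 31 the median difference was 2.40. The widest differences were SNORD36A and SNORD36B against RPL7A at −0.52, and SNORD15B against RPS3 at −0.49. SNORA70 and its host RPL10 both stood at 0.22. No member peak overlapped a peak of another gene on its strand, so these are separate regions.

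**Figure D5:**
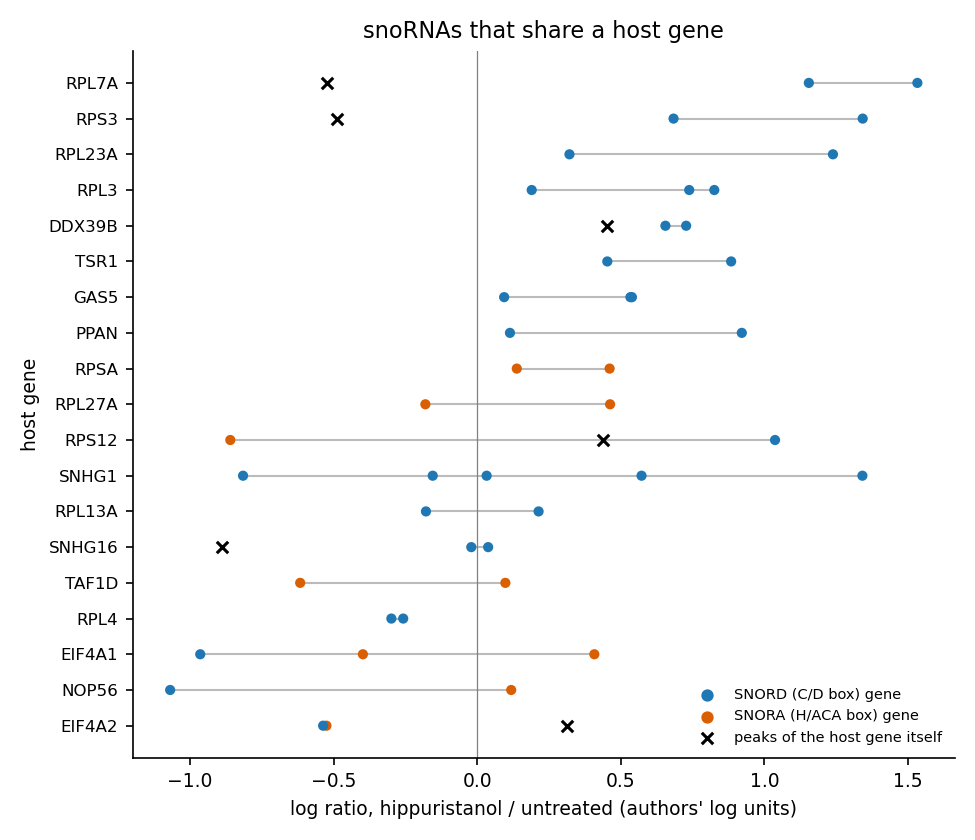
Log ratio (horizontal axis, authors' log units) of guide RNAs in 19 of the 20 host genes with 2 or more members (vertical axis, ordered by the median member), 1 point per guide RNA coloured by class, with a cross for the host's own peaks where it had any. Members of SNHG1 run from −0.82 to 1.34, and those of EIF4A2 lie together near −0.53.

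Of the non-coding host genes listed, 5 had peaks under their own names. SNHG12 stood at −1.24, SNHG6 at −0.96, SNHG16 at −0.89, SNHG7 at −0.19 and SNHG15 at 0.09. So 4 of 5 were below 0, where 60.5% of all genes lay above it. Of the 5 hosts, SNHG16 alone is a host of members in the table, SNORD1A and SNORD1B. Their values near 0 lay 0.93 and 0.87 above that of SNHG16.

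Ago2 peaks were listed for 4 of the genes encoding protein partners of guide RNAs. The share of all human genes with a peak was not computed, so the counts below cannot be called low or high. None of 12 genes of C/D particles and their assembly, among them FBL, which encodes fibrillarin, had a peak. Of 6 genes of H/ACA particles only DKC1, which encodes dyskerin, had one, with a gene value of −0.12 over 2 peaks. Of 10 genes of Cajal bodies and RNA export, NOLC1 stood at −0.11, PHAX, an export adaptor of small nuclear RNAs, at −0.17 and XPO1, an exportin, at −0.02. None of these 4 gene values lay above 0, where 60.5% of all genes did. Single peaks did lie above 0, up to 0.09 in DKC1 and up to 1.29 in XPO1, which had 6 peaks.

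Other small non-coding RNAs with peaks lay close to 0 or above it. VTRNA1-1, a vault RNA, had −0.34 as its log average, above all C/D members, and −0.07 as its log ratio. RMRP, the RNA of RNase MRP, stood at −0.09 over 5 peaks, and RPPH1, the RNA of RNase P, at 0.48 over 6. TERC, the telomerase RNA, which carries an H/ACA domain, stood at 0.12, RNU4ATAC at 0.50 and RNU11 at −0.05, the last 2 being RNAs of the minor spliceosome. None of these 6 gene values lay above 1 or below −1, beside 9.17% and 3.43% of all genes. The single peaks of RPPH1 ran from −0.25 to 1.40.

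Length and base composition went with the log ratio only weakly. Over 49 SNORD genes the correlation with the log ratio was 0.05 (Spearman 0.09) for length and 0.13 (0.18) for GC content, and over 23 SNORA genes 0.17 (0.14) and 0.26 (0.30). The median GC content was 44.5% in the 10 SNORD genes above 1 and 44.4% in the other 39. Of 8 genes listed as markers of the 293S line, NEFL, LIN28B and ENO2 had peaks. Of 15 markers of other cell types only VIM did, which cultured lines commonly express. The share of all human genes with a peak was not computed.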

How the data were processed

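Ago2 CLIP peaks of 293S cells with and without hippuristanol were analysed from 1 series-wide table, whose 2 value columns are scores that the authors normalized and deposited, a log average and a log ratio per peak, per the file header. No source used here gives the log base, how values were normalized, which peak caller and filters were used or how libraries were combined. Bowtie 0.12.8, TopHat, DESeq and the hg19 build appear, without a role, in the tools listed per the submitters' processing notes. Peak coordinates are printed as deposited. Whether starts count from 0 or 1 is not given.

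Among all peaks, 50 pairs within a gene repeated both values exactly and were counted once. None was in a member, and 4718 peaks were left. Gene values, medians, counts and exact order-statistic intervals were computed with Python 3.11.15, pandas 2.3.3 and SciPy 1.17.1. Interval code was checked on simulated data. All comparisons were descriptions, since values combine replicates, and no p-value was computed. Members were matched to RefSeq by accession (84 of 84). Sequences, lengths and hosts came from GENCODE 29 on GRCh38, with the shortest transcript where several existed. A host was the shortest named gene enclosing the RNA on its strand, without read-through genes, and peaks were not checked against introns. Where a member had no GENCODE transcript, its RefSeq GRCh38.p14 position was used to find the host. Copies were aligned globally with Biopython 1.88, and identity is over all aligned columns.

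The members and lists were chosen with earlier results of these data known. Genes were named by a rule, per class the 5 highest log averages and the 4 highest and 4 lowest log ratios, every SCARNA, members whose peaks differ by over 1 and members holding a microRNA (32 genes), and by the lists of proteins, hosts and small RNAs. Further members named for a copy, a host or a log ratio above 1 were chosen after their values were seen. One host gene and some sequences and positions are not reported here. Depth per library is unknown, so no interval for counting error can be given. Alternatives were other gene summaries, filters, comparison genes and limits.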

Additional observations from a re-analysis of the deposited data

How the results depend on the processing

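No paired analysis was possible because the table holds 1 value per peak combined over libraries, so neither a replicate nor an antibody could be left out. The difference of the median log ratio between members and other genes, 0.05, reversed to −0.038 over 44 members, those whose RefSeq symbol shares its stem with no other RefSeq gene, whether or not that gene has a peak. It was 0.26 against other non-coding genes. The difference of the log average, 1.52, became 0.72 against other non-coding genes and lay between 1.42 and 1.54 otherwise. The SNORD minus SNORA difference of the log ratio, 0.17, kept its direction under all 7 alternatives, from 0.17 to 0.34. Taking the mean over peaks or counting every row could not move it. No SNORD or SNORA gene had more than 2 peaks or a repeated pair of values. Of the alternatives 1, without the RNAs of EIF4A1 and EIF4A2 (0.24), was chosen after seeing the data. The same difference of the log average, 0.26, reversed to −0.67 over the same 44 members. At a limit of 0.75 log units 20 members lay above and 5 below, against 13 and 1 at a limit of 1. The share of all genes past 0.75 was not computed, so the counts at that limit have nothing to be set beside. Centred at the median gene, 10 lay above and 3 below. The median range between peaks of a member, 0.50, was 0.88 over the 6 members left with peaks that do not overlap. The cause of these shifts was not tested.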
